A study of Homo sapiens and Mus musculus with 18 samples.

Results

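The 10 genes described here control the switch between epithelial and mesenchymal cell states. SNAI1, SNAI2, TWIST1, TWIST2, ZEB1, ZEB2 and PRRX1 form the mesenchymal side, and GRHL2, ESRP1 and ESRP2 the epithelial side. They were chosen by name and textbook role and not by a threshold on their values, but with earlier results of these data known. All 10 were found among the 63677 gene IDs of the 7 one-library count files and among the 56299 IDs of a 6-column human table, and all 10 passed the filter on low counts in both sets.

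The series followed mesothelium, the epithelium that lines the body cavities, made from the established human embryonic stem cell line WA09. Every human group began as splanchnic mesoderm, the layer that gives rise to mesothelium and to gut smooth muscle. MLC (2 libraries), which the study calls the epithelial form, were splanchnic mesoderm cells replated with 20 µM SB431542, an inhibitor of the TGF-beta receptor, and 4 µM retinoic acid, without FGF2 or activin A. MesoT-derived MLC (2 libraries) were MesoT replated in that same medium. MesoT FCS (2 libraries) were MesoT carried to passage 4 in 10% serum with 8 ng/ml FGF2. The smooth muscle sample (1 library) was splanchnic mesoderm left in culture. MesoT, which the study calls the mesenchymal form, received 25 ng/ml WNT3A, 50 ng/ml BMP4 and 4 µM retinoic acid and were sampled at day 18 and day 22 (2 libraries each). All groups therefore share 1 cell line, and the labels do not say whether replicates were separate cultures, so p-values measure only the spread between these libraries. The one-library files held MLC, MesoT FCS, smooth muscle and MesoT day 18, and the table held MesoT-derived MLC with MesoT day 22 and day 18. The 4 mouse samples and 3 chromatin immunoprecipitation samples were not used here.

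SNAI, TWIST and ZEB proteins are transcription factors that repress epithelial genes, among them CDH1 for E-cadherin, in part through E-box motifs in promoters, and PRRX1 is a homeobox factor of embryonic mesenchyme. GRHL2 works in the opposite sense: it activates genes of cell junctions and represses ZEB1, while ZEB1 represses GRHL2 and the miR-200 microRNAs, which in turn silence ZEB1 and ZEB2. ESRP1 and ESRP2 are RNA-binding proteins that set the epithelial pattern of splicing. In mesothelium these factors are of interest because the tissue is an epithelium of mesodermal origin that can take on a mesenchymal form.

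Levels are given as CPM, counts scaled to a common library size, after TMM scaling, a correction of library sizes for composition. The 2 sets were scaled apart, so a level in one set was not tested against a level in the other. Total counts were 70679258 and 65709545 in MLC and between 21148477 and 31435480 in the other 11 columns. Mitochondrial counts were 6.84% and 7.77% of the total in MLC and between 2.48% and 4.40% elsewhere. Of 11 mesothelial markers, UPK1B was at 0 in the one-library file of MesoT day 18 replicate 1, and the summed markers ran from 514 to 3518 CPM over all columns. The smooth muscle library carried 3486 CPM of summed stratified-epithelium markers, against at most 219 CPM in any other column. These bulk libraries cannot tell fewer cells of a type from less RNA per cell.

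GRHL2 (ENSG00000083307), the Grainyhead-family activator of junction genes, was at the top of its range in MLC and was not detected in MesoT FCS. It had 64.9 and 66.3 CPM in MLC, 0 and 0 CPM in MesoT FCS, 59.4 CPM in smooth muscle, and 34.3 and 43.0 CPM in MesoT day 18. Both MLC libraries lay above both day 18 libraries, and no read of GRHL2 was counted in either MesoT FCS library. In edgeR's quasi-likelihood test across all genes, with Benjamini-Hochberg adjustment, GRHL2 was higher in MLC than in MesoT day 18 by 0.76 ± 0.19 on the log2 scale (SE, n = 2 against 2, adjusted p = 0.0437). It was at least 518-fold lower in MesoT FCS, with 0 counts against 2325 at day 18 and a floor of 3 counts over the group (edgeR adjusted p = 0.00154). In the table GRHL2 had 18.4 and 2.74 CPM in MesoT-derived MLC, against 59.2 and 74.6 CPM in MesoT day 22 and 41.9 and 51.8 CPM in MesoT day 18. Both MesoT-derived MLC libraries lay below all 4 MesoT libraries, and they lay far apart from each other. The log2 fold change of -2.41 ± 0.73 against the 4 MesoT libraries did not pass (edgeR adjusted p = 0.0887).

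ESRP1 (ENSG00000104413), one of the epithelial splicing regulators, followed a like order with the smooth muscle library on top. Its levels were 69.0 and 59.1 CPM in MLC, 0 and 0.112 CPM in MesoT FCS, 113 CPM in smooth muscle, and 30.7 and 34.5 CPM in MesoT day 18. The 4 groups did not overlap, and the 2 MesoT FCS libraries together held 2 counts. The ratio of MesoT FCS to MesoT day 18 was 0.00152, with a 95% counting interval of 0.000185 to 0.00551 (edgeR adjusted p = 0.00168). ESRP1 was higher in smooth muscle than in MesoT day 18 by 1.80 ± 0.35 on the log2 scale (n = 1 against 2, edgeR adjusted p = 0.0368). The 0.97 ± 0.30 between MLC and MesoT day 18 did not pass (edgeR adjusted p = 0.0624). In the table ESRP1 had 26.6 and 5.03 CPM in MesoT-derived MLC, against 42.3 and 65.3 CPM at day 22 and 38.9 and 42.6 CPM at day 18. The MesoT-derived MLC libraries again lay below every MesoT library, with a log2 fold change of -1.57 ± 0.64 that did not pass (edgeR adjusted p = 0.163).

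ESRP2 (ENSG00000103067), its paralog, did not follow ESRP1 in MesoT-derived MLC. It had 36.4 and 29.3 CPM in MesoT-derived MLC, against 23.5 and 37.6 CPM at day 22 and 19.8 and 25.1 CPM at day 18. These libraries overlapped, and the difference of 0.33 ± 0.24 did not pass (edgeR adjusted p = 0.401). In the one-library files ESRP2 had 27.3 and 27.9 CPM in MLC, 0.491 and 0.223 CPM in MesoT FCS, 52.2 CPM in smooth muscle, and 16.0 and 21.6 CPM in MesoT day 18. MesoT FCS lay below every other library here, on 11 and 4 counts, and ESRP2 fell by 5.67 ± 0.38 on the log2 scale against MesoT day 18 (edgeR adjusted p = 0.00226). It was higher in smooth muscle than in day 18 by 1.47 ± 0.33 (edgeR adjusted p = 0.0496), and the 0.55 ± 0.28 of MLC did not pass (edgeR adjusted p = 0.199). No source used here gives the annotation or the strand setting of the counting, so reads of overlapping genes could not be told apart. NFATC3, the neighbour of ESRP2, stood at 20.9 and 22.7 CPM in MesoT FCS.

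**Figure D1:**
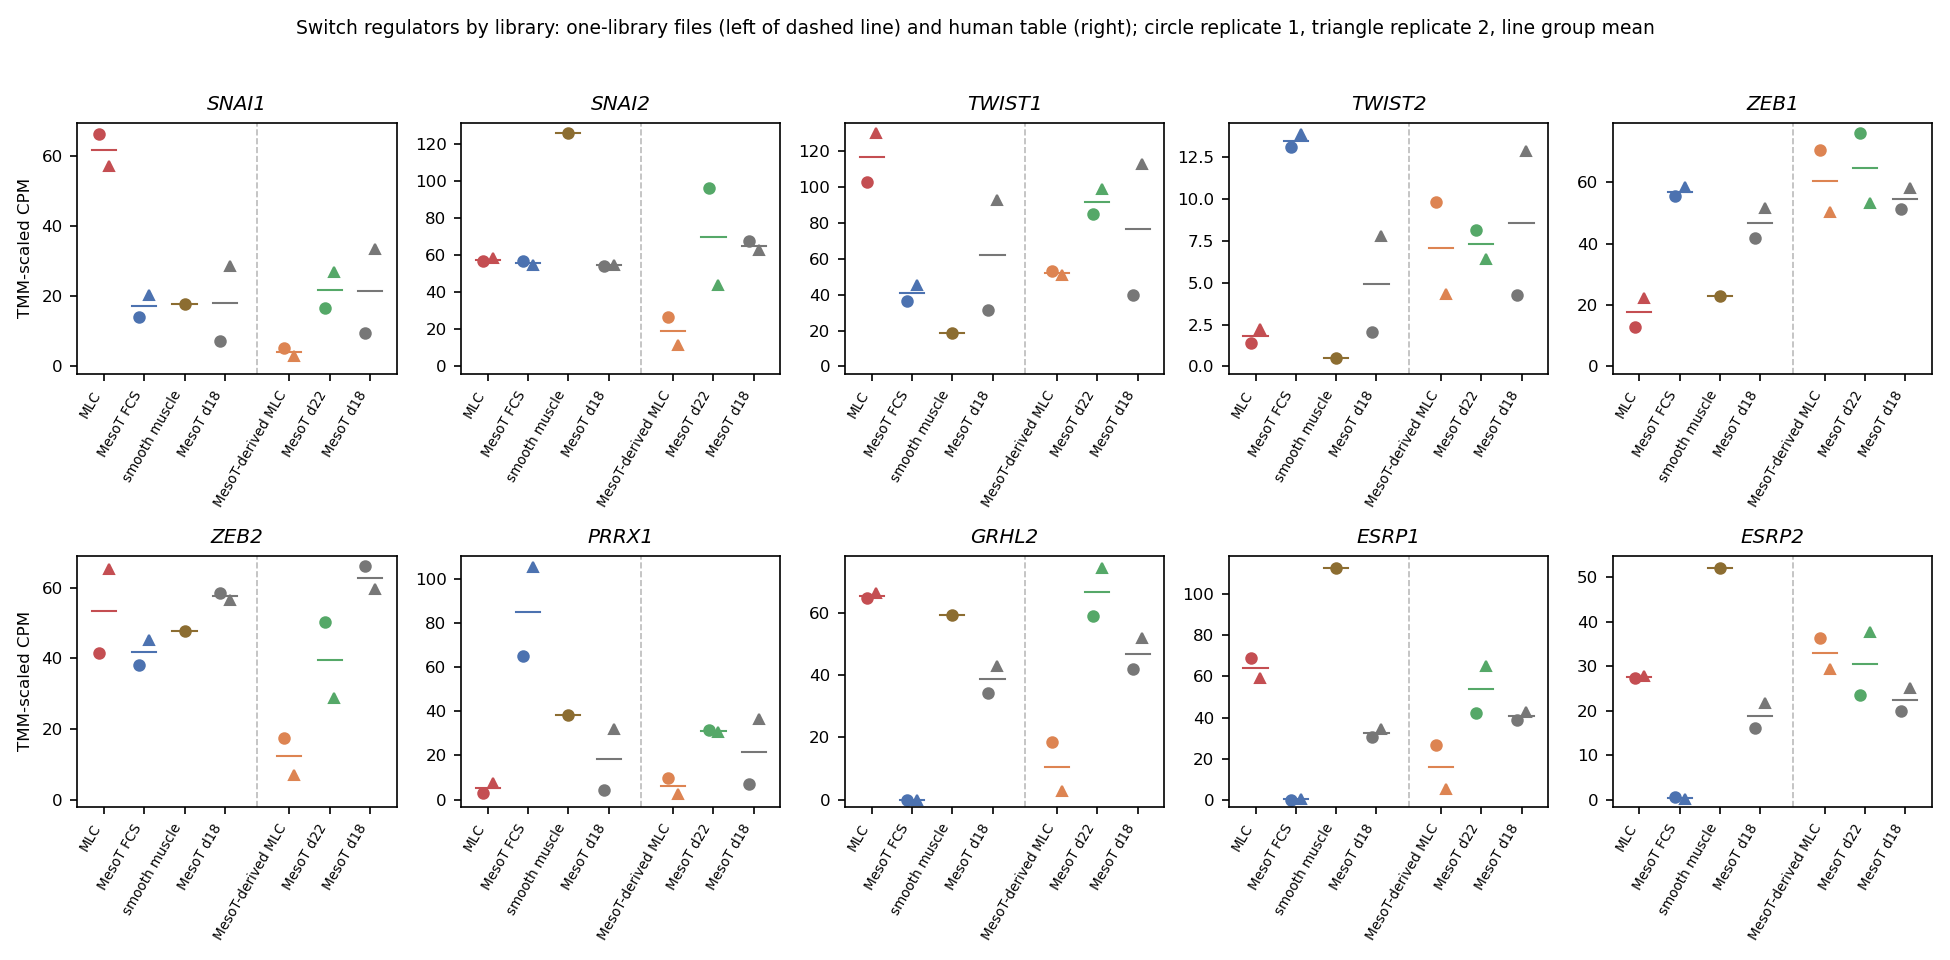
TMM-scaled CPM of the 10 regulators in each library, 1 panel per gene, with the one-library files left of the dashed line and the human table right of it. Circles are replicate 1, triangles replicate 2 and short lines the group mean. GRHL2, ESRP1 and ESRP2 sit at or near 0 in MesoT FCS. ZEB1 is lowest in MLC among the one-library files, and ZEB2 is lowest in MesoT-derived MLC within the human table.

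ZEB1 (ENSG00000148516), a zinc-finger repressor of epithelial genes, ran the other way in the one-library files. It had 12.96 and 22.2 CPM in MLC, 55.3 and 58.6 CPM in MesoT FCS, 22.8 CPM in smooth muscle, and 41.7 and 51.7 CPM in MesoT day 18. The 4 groups did not overlap, and the highest group mean was 3.24 times the lowest. ZEB1 fell by 1.41 ± 0.29 on the log2 scale in MLC against MesoT day 18 (edgeR adjusted p = 0.0189) and was not past the threshold in MesoT FCS against day 18, at 0.29 ± 0.28 (edgeR adjusted p = 0.466), a sign that turned to -0.24 with scaling by library totals. In the table ZEB1 had 70.5 and 50.2 CPM in MesoT-derived MLC, against 76.1 and 53.1 CPM at day 22 and 51.1 and 58.2 CPM at day 18. These libraries overlapped, and the fold change of 0.02 ± 0.22 did not pass (edgeR adjusted p = 0.958). Its antisense neighbour ZEB1-AS1 had 166 and 227 day 18 counts in the one-library set but 86 and 117 in the table. The 2 sets thus did not count ZEB1-AS1 in the same way. ZEB1 itself held 1294 and 1513 day 18 counts in the one-library set and 1385 and 1587 in the table. After scaling, ZEB1 differed by under 0.5 log2 between the sets in both replicates.

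ZEB2 (ENSG00000169554), the paralog of ZEB1, was the only one of the 10 past the threshold in MesoT-derived MLC. It had 17.5 and 7.08 CPM in MesoT-derived MLC, against 50.2 and 28.8 CPM at day 22 and 66.1 and 59.6 CPM at day 18. The 4 MesoT libraries may not be independent, since day 18 and day 22 libraries of equal replicate number deviated together over all genes tested (correlation 0.557). Every MesoT library lay above both MesoT-derived MLC libraries, and ZEB2 fell by 2.02 ± 0.44 on the log2 scale (n = 2 against 4, edgeR adjusted p = 0.0438). That call was lost in 9 of 15 alternatives, with any 1 of the 6 libraries left out among them (edgeR adjusted p between 0.0588 and 0.201). In the one-library files ZEB2 had 41.6 and 65.3 CPM in MLC, 38.1 and 45.3 CPM in MesoT FCS, 47.7 CPM in smooth muscle, and 58.6 and 56.6 CPM in MesoT day 18. MLC spanned the day 18 values, at -0.11 ± 0.24 (edgeR adjusted p = 0.780). MesoT FCS lay below day 18 without passing, at -0.47 ± 0.25 (edgeR adjusted p = 0.195).

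SNAI1 (ENSG00000124216), the Snail repressor of CDH1, was highest in MLC. It had 66.4 and 57.3 CPM in MLC, 14.2 and 20.4 CPM in MesoT FCS, 17.8 CPM in smooth muscle, and 7.34 and 28.7 CPM in MesoT day 18. Both MLC libraries lay above all others, while the 3 other groups overlapped. The difference of MLC from MesoT day 18 was 1.78 ± 0.60 and did not pass (edgeR adjusted p = 0.0805), and that from MesoT FCS was 1.84 ± 0.60 and passed (edgeR adjusted p = 0.0472). The table gave 5.36 and 2.91 CPM in MesoT-derived MLC, against 16.7 and 27.1 CPM at day 22 and 9.53 and 33.5 CPM at day 18. MesoT-derived MLC lay below all 4 MesoT libraries, at -2.39 ± 0.62 without passing (edgeR adjusted p = 0.0616).

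SNAI2 (ENSG00000019549), the Slug repressor, was nearly level over 6 of the 7 one-library files. It had 57.0 and 58.6 CPM in MLC, 57.0 and 54.6 CPM in MesoT FCS, 126 CPM in smooth muscle, and 54.6 and 54.99 CPM in MesoT day 18. Smooth muscle stood above the rest, by 1.20 ± 0.16 on the log2 scale against day 18 (n = 1 against 2, edgeR adjusted p = 0.0204). In the table SNAI2 had 26.9 and 11.7 CPM in MesoT-derived MLC, against 96.2 and 44.1 CPM at day 22 and 67.7 and 62.7 CPM at day 18. The MesoT-derived MLC libraries lay below every MesoT library, at -1.81 ± 0.46 without passing (edgeR adjusted p = 0.0609).

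TWIST1 (ENSG00000122691), a basic helix-loop-helix factor of mesenchyme, had 103 and 130.1 CPM in MLC, 36.6 and 45.5 CPM in MesoT FCS, 18.4 CPM in smooth muscle, and 31.5 and 92.5 CPM in MesoT day 18. MLC lay above every other library in that set. The 0.91 ± 0.48 against day 18 did not pass (edgeR adjusted p = 0.216) and the 1.51 ± 0.49 against MesoT FCS did (edgeR adjusted p = 0.0453). Its table values were 53.2 and 50.8 CPM in MesoT-derived MLC, against 84.7 and 98.7 CPM at day 22 and 39.8 and 113 CPM at day 18, and these overlapped (-0.69 ± 0.40, edgeR adjusted p = 0.299).

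TWIST2 (ENSG00000233608), the paralog of TWIST1 in dermis and other connective tissue, had 1.4 and 2.22 CPM in MLC, 13.1 and 13.8 CPM in MesoT FCS, 0.488 CPM in smooth muscle, and 2.03 and 7.79 CPM in MesoT day 18. MesoT FCS lay above all the others, and MLC overlapped day 18. TWIST2 fell by 2.89 ± 0.66 on the log2 scale in MLC against MesoT FCS (edgeR adjusted p = 0.0150), while the 1.46 ± 0.63 of MesoT FCS against day 18 did not pass (edgeR adjusted p = 0.133). In the table it had 9.80 and 4.31 CPM in MesoT-derived MLC, against 8.13 and 6.43 CPM at day 22 and 4.25 and 12.8 CPM at day 18, all overlapping. TWIST2 was the 1 regulator that the sets counted unalike at day 18, holding 63 and 228 counts in the one-library set but 115 and 350 in the table.

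PRRX1 (ENSG00000116132) had 3.00 and 7.66 CPM in MLC, 65.1 and 105 CPM in MesoT FCS, 38.2 CPM in smooth muscle, and 4.44 and 32.2 CPM in MesoT day 18. Both MesoT FCS libraries lay above every other, and MLC overlapped day 18. PRRX1 fell by 4.00 ± 0.99 on the log2 scale in MLC against MesoT FCS (edgeR adjusted p = 0.0196), and the 2.22 ± 0.92 of MesoT FCS against day 18 did not pass (edgeR adjusted p = 0.120). Its table values were 9.87 and 2.46 CPM in MesoT-derived MLC, against 31.6 and 30.8 CPM at day 22 and 6.83 and 36.5 CPM at day 18. MesoT-derived MLC overlapped day 18, at -2.08 ± 0.84 (edgeR adjusted p = 0.157).

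The 2 MesoT day 18 libraries stood apart in SNAI1, TWIST1, TWIST2 and PRRX1, each higher in replicate 2. They were closer in GRHL2, ESRP1, ESRP2, SNAI2, ZEB1 and ZEB2, of which all but ZEB2 were also higher in replicate 2. Summed smooth muscle markers at day 18 went the other way, at 1650 CPM in replicate 1 and 276 CPM in replicate 2, and CDH2, the N-cadherin gene, had 378 and 113 CPM. Their part in the wide errors of SNAI1, TWIST1, TWIST2 and PRRX1 was not tested. Every comparison with MesoT day 18 in the one-library files shares these 2 libraries.

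MesoT FCS set against MesoT day 18 compares the mesenchymal form carried in serum with FGF2 to passage 4 with the form it came from, and medium and passage cannot be told apart in it. All 3 epithelial regulators fell and none of the 7 mesenchymal regulators passed, so 3 of 10 were called, where 27.3% of 23049 genes tested were called in either direction and 14.4% lower. Of all calls 47.5% were higher, or 19.2% with scaling by library totals, which moved the median of all genes from -0.16 to -0.67 on the log2 scale. The 3 calls held in each of the 12 alternatives run. On the mesenchymal side edgeR called 0 of 7, with 0 at an unadjusted p under 0.05, and DESeq2 called PRRX1 (adjusted p = 0.0312). Without day 18 replicate 2, SNAI1 turned to 1.23 (edgeR adjusted p = 0.0402) and TWIST2 reached 2.72 (edgeR adjusted p = 0.0185) and PRRX1 4.26 (edgeR adjusted p = 0.0220), all higher in MesoT FCS, and without day 18 replicate 1 TWIST1 was lower by -1.22 (edgeR adjusted p = 0.0140).

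Epithelial genes fell as well. CDH1, a known target of both sides, had 0.580 and 0.167 CPM in MesoT FCS, against 142 and 144 CPM in MesoT day 18. It fell by 8.51 ± 0.45 on the log2 scale (edgeR adjusted p = 0.00163). Of 30 epithelial genes tested, 24 fell and 2 rose (KRT19 and MUC1), with a median log2 fold change of -3.63 beside -0.16 over all genes. PRSS8, a membrane-bound protease of epithelia, averaged 0.569 ± 0.016 CPM in MesoT FCS, against 40.4 ± 8.52 CPM in day 18 (SD, n = 2 each), and fell by 6.14 ± 0.26 on the log2 scale (edgeR adjusted p = 0.0013). CDS1 fell by 5.23 ± 0.23 (edgeR adjusted p = 0.00143). ST14, the protease matriptase, held 1 count in MesoT FCS against 1514 at day 18, which is 0.000988 of the day 18 level (95% counting interval 2.5e-05 to 0.00551, edgeR adjusted p = 0.00154).

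Some cell type markers fell in MesoT FCS beside the epithelial genes. Of 11 mesothelial markers 5 fell and 1 rose, with a median of -2.55, although their sums of 1152 and 691 CPM in MesoT FCS lay above the 514 and 565 CPM of day 18. Of 7 endothelial markers tested 4 fell and 1 rose, with a median of -3.60. Their sums were 106 and 59.6 CPM in MesoT FCS, against 300.2 and 128 CPM in day 18. PECAM1 was at 0 in every column of both sets and was not tested. Of 8 pluripotency markers 4 fell and none rose, with sums of 17.0 and 15.9 CPM in MesoT FCS, against 79.8 and 158 CPM in day 18, and with NANOG and TDGF1 at 0 in both MesoT FCS libraries. Of 10 stratified-epithelium markers 3 fell, with a median of -3.55. The part of these markers in the falls of GRHL2, ESRP1, ESRP2 and the epithelial genes was not tested.

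Of 18 other switch regulators tested, 8 fell in MesoT FCS and 1 rose (TCF3), while none rose without MesoT FCS replicate 2 or without day 18 replicate 1. GRHL1, GRHL3, OVOL1, OVOL2, ELF3 and KLF5, of the epithelial side, were among the 8, as were TCF4 and FOXC1, which are known to promote the mesenchymal state. GRHL1, a paralog of GRHL2, fell by 5.31 ± 0.38 (edgeR adjusted p = 0.00229). ELF3, an epithelial ETS factor, fell by 6.17 ± 0.51 (edgeR adjusted p = 0.00307) and KLF5 fell by 2.27 ± 0.21 (edgeR adjusted p = 0.00381). GRHL3 held 1 count against 555 at day 18, which is 0.0027 of the day 18 level (counting interval 6.81e-05 to 0.0151). OVOL1 and OVOL2, zinc-finger factors that repress ZEB1 in other epithelia, were at 0 counts and at least 31.4-fold and 31.9-fold lower than at day 18. The list's median was -2.01, or -1.74 with genes at 0 counts set to their bound.

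Of 24 mesenchymal genes, 3 rose (LOXL2, ITGA5 and COL1A1) and 1 fell (COL3A1), with a median of 1.31. Among all 23049 genes tested, 2991 were called higher and 3310 lower. Whether mesenchymal genes rose more often than genes at large was not tested. LOXL2, which cross-links collagen, was higher by 3.59 ± 0.63 (edgeR adjusted p = 0.0138), while COL3A1 fell by 1.55 ± 0.39 (edgeR adjusted p = 0.0331). Of 14 genes known to respond to TGF-beta, 4 rose (COL7A1, TGFBI, TGFB1I1 and SMURF2) and 2 fell (SKIL and LEFTY2), with a median of 1.39. COL7A1 was higher by 3.00 ± 0.23 (edgeR adjusted p = 0.00272) and TGFBI by 4.58 ± 0.61 (edgeR adjusted p = 0.00746). The number of mesenchymal genes that rose was 1 without MesoT FCS replicate 1, 2 without MesoT FCS replicate 2, 14 without day 18 replicate 1 and 6 without day 18 replicate 2, and none fell without MesoT FCS replicate 1 or 2. For the TGF-beta genes in that order, 2, 3, 9 and 5 rose and 0, 0, 1 and 3 fell. Summed smooth muscle markers were 7331 and 1774 CPM in MesoT FCS, against 1650 and 276 CPM in day 18, and their part in these lists was not tested.

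The E-box bound by SNAI and ZEB proteins was looked up in those promoters of the listed genes that the RefSeq table held, for 18 of the 30 epithelial and 13 of the 24 mesenchymal genes, some with several gene starts. Windows ran from 250 bases before to 50 bases after a RefSeq gene start (GRCh38.p14). The motif CAGGTG, read on both strands (CACCTG on the other), was in 20.6% of 35116 windows. It was in 16 of 24 windows of epithelial genes (66.7%), in 3 of 19 windows of mesenchymal genes (15.8%) and in 2 of 10 windows of the regulators (20.0%). By gene, it was at 14 of 18 epithelial and 2 of 13 mesenchymal genes, beside 6571 of 27305 genes in all. The GRHL motif AACCNGTT was in 1.73% of all windows and in 1 of the 24 epithelial ones (4.17%). A match is a description of the letters and not a measured binding site. For 3 examples from the epithelial side, only the 250 bases before the start are shown, with the E-boxes in capitals. The examples are CRB3, of the Crumbs polarity complex (chr19:6464021-6464270, + strand), AP1M2, of the epithelial sorting adaptor AP-1B (chr19:10587313-10587562, - strand), and MIR200CHG, the host transcript of miR-200c and miR-141 (chr12:6962995-6963244, + strand).
CRB3: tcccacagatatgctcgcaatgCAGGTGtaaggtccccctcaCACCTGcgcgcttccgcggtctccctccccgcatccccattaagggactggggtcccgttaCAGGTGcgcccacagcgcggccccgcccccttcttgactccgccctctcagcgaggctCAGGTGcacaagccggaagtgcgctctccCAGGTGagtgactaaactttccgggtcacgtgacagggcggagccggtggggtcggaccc
AP1M2: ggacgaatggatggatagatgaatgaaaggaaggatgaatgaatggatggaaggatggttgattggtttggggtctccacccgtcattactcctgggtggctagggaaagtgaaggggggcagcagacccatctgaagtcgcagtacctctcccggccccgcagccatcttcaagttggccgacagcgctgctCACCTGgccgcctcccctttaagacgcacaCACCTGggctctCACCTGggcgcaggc
MIR200CHG: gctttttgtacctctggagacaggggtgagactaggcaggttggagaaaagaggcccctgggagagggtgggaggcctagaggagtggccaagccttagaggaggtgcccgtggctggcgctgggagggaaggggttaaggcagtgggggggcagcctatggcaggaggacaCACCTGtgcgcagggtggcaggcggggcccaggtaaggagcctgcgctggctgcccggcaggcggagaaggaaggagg

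In those 250 bases CRB3 holds 5 E-boxes, AP1M2 3 and MIR200CHG 1. CRB3 had 3.55 and 3.50 CPM in MLC, 0 and 0.0558 CPM in MesoT FCS, 14.6 CPM in smooth muscle, and 6.15 and 5.91 CPM in MesoT day 18. It was all but missing in MesoT FCS, with a ratio to day 18 of 0.00411 and a 95% counting interval of 0.000104 to 0.023 (edgeR adjusted p = 0.00347). AP1M2 had 33.3 and 25.3 CPM in MLC, 1.96 and 0.223 CPM in MesoT FCS, 47.3 CPM in smooth muscle, and 17.2 and 31.1 CPM in MesoT day 18. It fell by 4.41 ± 0.81 in MesoT FCS against day 18 (edgeR adjusted p = 0.0153).

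The microRNAs made from MIR200CHG are shown because their seeds, bases 2 to 8 in capitals, pair with ZEB1 and ZEB2 transcripts. They lie at chr12:6963742-6963764 and chr12:6964155-6964176 on the + strand of GRCh38.p14, from RefSeq.
hsa-miR-200c-3p: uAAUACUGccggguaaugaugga
hsa-miR-141-3p: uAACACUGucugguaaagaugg

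Poly-A libraries do not measure the mature microRNAs, and their host transcript was sparse. MIR200CHG had 21 and 12 counts in MLC, 0 and 0 in MesoT FCS, 11 in smooth muscle, and 3 and 12 in MesoT day 18. In the table it had 5 and 1 counts in MesoT-derived MLC, against 21 and 31 at day 22 and 13 and 21 at day 18. The MesoT-derived MLC libraries were below every MesoT library, at -2.83 ± 0.67, short of the threshold (edgeR adjusted p = 0.0526).

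**Figure D2:**
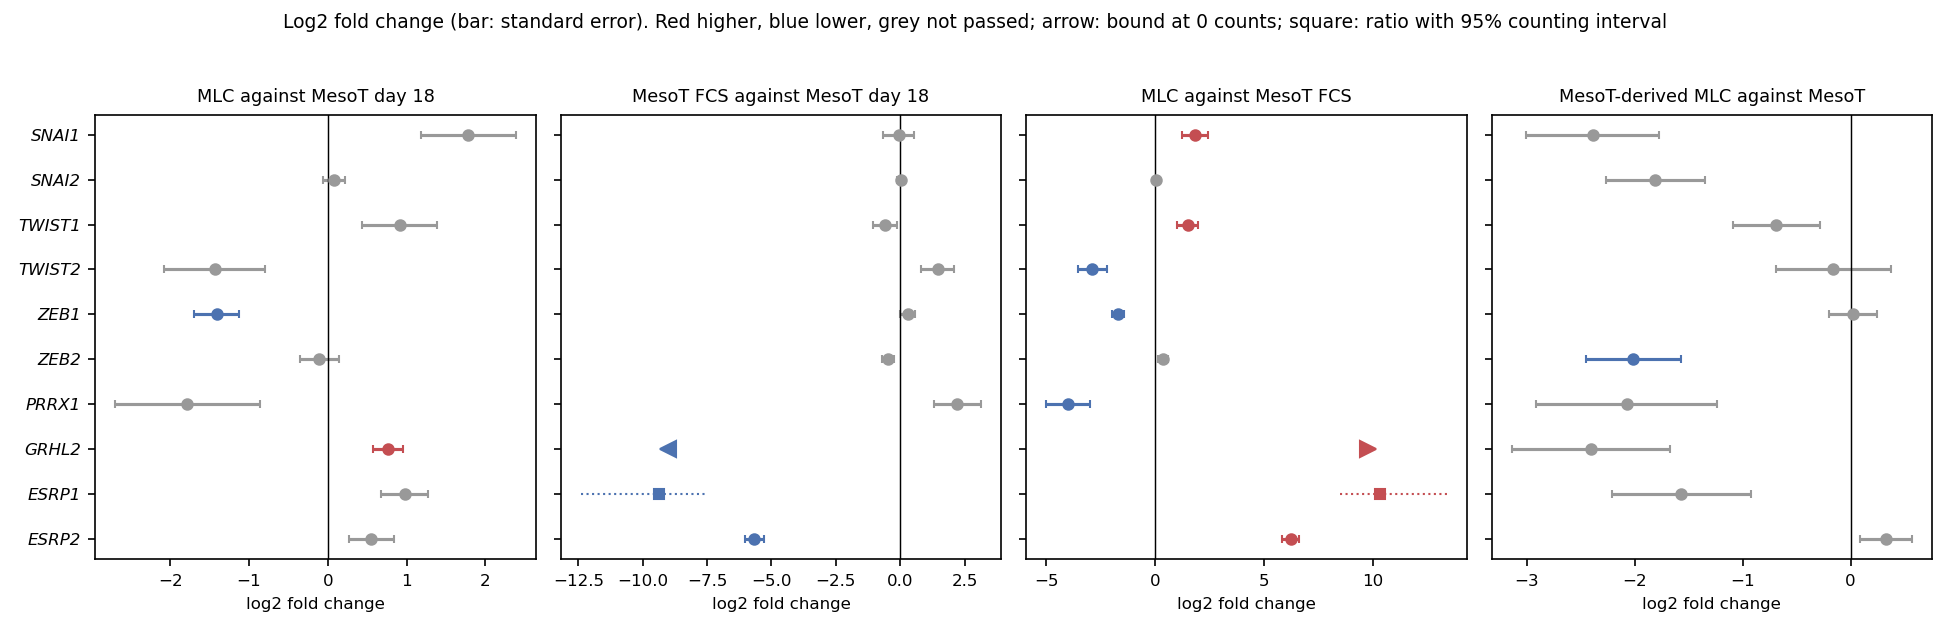
log2 fold change of the 10 regulators in 4 comparisons, with red for genes past the threshold and higher, blue for past it and lower, and grey for not past it; bars are SE, arrows bounds for a group at 0 counts and squares ratios with a 95% counting interval. GRHL2, ESRP1 and ESRP2 lie far below 0 for MesoT FCS against MesoT day 18 and far above 0 for MLC against MesoT FCS.

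MLC set against MesoT day 18 compares the labelled epithelial and mesenchymal forms. ZEB1 fell and GRHL2 rose, which are 2 of 10 called, where 24.6% of 23049 genes were called in either direction (7.83% higher and 16.8% lower). Of all calls 31.9% were higher, or 20.0% with scaling by library totals. ZEB1 kept its call in 12 of 13 alternatives and lost it without MLC replicate 1 (-1.07, edgeR adjusted p = 0.0925). GRHL2 lost its call in 7 of 13, among them library totals (edgeR adjusted p = 0.155), without MLC replicate 1 (0.217), without MLC replicate 2 (0.230) and without day 18 replicate 1 (0.0506), and was higher in MLC in each. CDH1 had 191 and 205 CPM in MLC, against 142 and 144 CPM in MesoT day 18. Both MLC libraries lay above both day 18 libraries, and the difference of 0.47 ± 0.30 did not pass (edgeR adjusted p = 0.303). CDH2 had 56.2 and 42.9 CPM in MLC, against 378 and 113 CPM in day 18, and fell by 2.31 ± 0.55 (edgeR adjusted p = 0.0315).

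Epithelial genes were detected in both forms. In MLC 4 of 30 rose over day 18 and none fell, with a median of 0.11 beside -0.03 over all genes. PKP3, a desmosome protein, averaged 69.6 ± 6.81 CPM in MLC and 15.9 ± 1.11 CPM in day 18 (SD, n = 2 each), higher by 2.13 ± 0.23 (edgeR adjusted p = 0.00226). CDS1 was higher by 1.54 ± 0.17 (edgeR adjusted p = 0.00252), and MUC1 and KRT19 also rose. Epithelial genes that rose numbered 2 without MLC replicate 1 or without MLC replicate 2, 6 without day 18 replicate 1 and 5 without day 18 replicate 2, and against the table's day 18 6 rose and 1 fell. Of 24 mesenchymal genes 6 fell and none rose (FAP, TNC, CDH2, THY1, ACTA2 and TAGLN), with a median of -1.01. FAP, a surface protease of activated fibroblasts, fell by 3.05 ± 0.46 (edgeR adjusted p = 0.00712) and TNC, the matrix protein tenascin-C, fell by 3.38 ± 0.64 (edgeR adjusted p = 0.0150). With 1 library left out, the mesenchymal genes that fell numbered 1 without either MLC library, 4 without day 18 replicate 1 and 14 without day 18 replicate 2.

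Of the 14 genes that respond to TGF-beta, whose receptor SB431542 blocks in the MLC medium, 6 fell (NOX4, PMEPA1, LEFTY2, SKIL, LTBP2 and TGFB1) and COL7A1 rose, with a median of -0.97. NOX4 fell by 1.29 ± 0.21 (edgeR adjusted p = 0.00981) and PMEPA1 fell by 2.47 ± 0.42 (edgeR adjusted p = 0.0106). Among 18 other regulators GRHL1 rose by 1.18 ± 0.26 (edgeR adjusted p = 0.0256), and FOXC2 fell by 2.59 ± 0.41 (edgeR adjusted p = 0.00852) and SNAI3 fell by 3.97 ± 0.57 (edgeR adjusted p = 0.00599). The TGF-beta genes that fell numbered 0 without MLC replicate 1 or without MLC replicate 2, 6 without day 18 replicate 1 and 9 without day 18 replicate 2. Of the other regulators 0 passed in either direction without MLC replicate 1 or without MLC replicate 2, while 3 rose and 3 fell without day 18 replicate 1 and 2 rose and 2 fell without day 18 replicate 2.

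Markers of other cell types also differed between MLC and day 18. Of 8 smooth muscle markers 5 fell and 1 rose, with a median of -4.16, and their sums were 227 and 212 CPM in MLC, against 1650 and 276 CPM in day 18. Of 7 endothelial markers tested 5 fell and none rose, with a median of -2.99. Their sums of 142 and 184 CPM in MLC lay between the 300.2 and 128 CPM of day 18, and PECAM1 was at 0 in every column. Summed hepatocyte markers were 145 and 62.6 CPM in MLC, against 3.32 and 3.28 CPM in day 18, and summed gut markers 49.5 and 30.1 CPM, against 8.63 and 11.9 CPM. Of 8 pluripotency markers 1 rose and 2 fell, with a median of 1.30. Their sums were 238 and 256 CPM in MLC, against 79.8 and 158 CPM in day 18. Of 11 mesothelial markers 4 rose and 1 fell, with sums of 1184 and 1085 CPM in MLC, against 514 and 565 CPM in day 18. The part of these marker lists in the differences of the regulators and of the gene lists was not tested.

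MLC set against MesoT FCS compares the epithelial form with serum-grown MesoT, and 8 of 10 regulators were called, where 48.9% of all genes were called (22.6% higher and 26.3% lower). Of all calls 46.1% were higher, or 58.9% with scaling by library totals. GRHL2 was at least 881-fold higher in MLC, and ESRP1 1294-fold, with a 95% counting interval of 358 to 10690. ESRP2 was higher by 6.22 ± 0.39 (edgeR adjusted p = 0.000285). ZEB1 fell by 1.69 ± 0.29 (edgeR adjusted p = 0.00553), and TWIST2 and PRRX1 fell as given above. The mesenchymal side was not of 1 direction, since SNAI1 and TWIST1 rose in MLC and SNAI2 (0.05, edgeR adjusted p = 0.778) and ZEB2 (0.36 ± 0.24, edgeR adjusted p = 0.261) did not pass. Calls of ZEB1, GRHL2, ESRP1 and ESRP2 held in all 11 alternatives. SNAI1 and TWIST1 lost theirs whenever 1 library of MLC or MesoT FCS was left out (edgeR adjusted p between 0.109 and 0.187), TWIST2 without MLC replicate 1 (0.101) or MLC replicate 2 (0.0718), and PRRX1 without MLC replicate 1 (0.113), MLC replicate 2 (0.0703) or MesoT FCS replicate 2 (0.0632). Of 30 epithelial genes 25 were higher and 1 lower in MLC (KRT19), with a median of 3.82 beside 0.00 over all genes, and of 24 mesenchymal genes 15 were lower and none higher, with a median of -2.43. The 15 became 6 without MLC replicate 1 and 7 without MLC replicate 2. Smooth muscle markers differed too, with 6 of 8 lower in MLC and a median of -5.46, and their part was not tested.

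**Figure D3:**
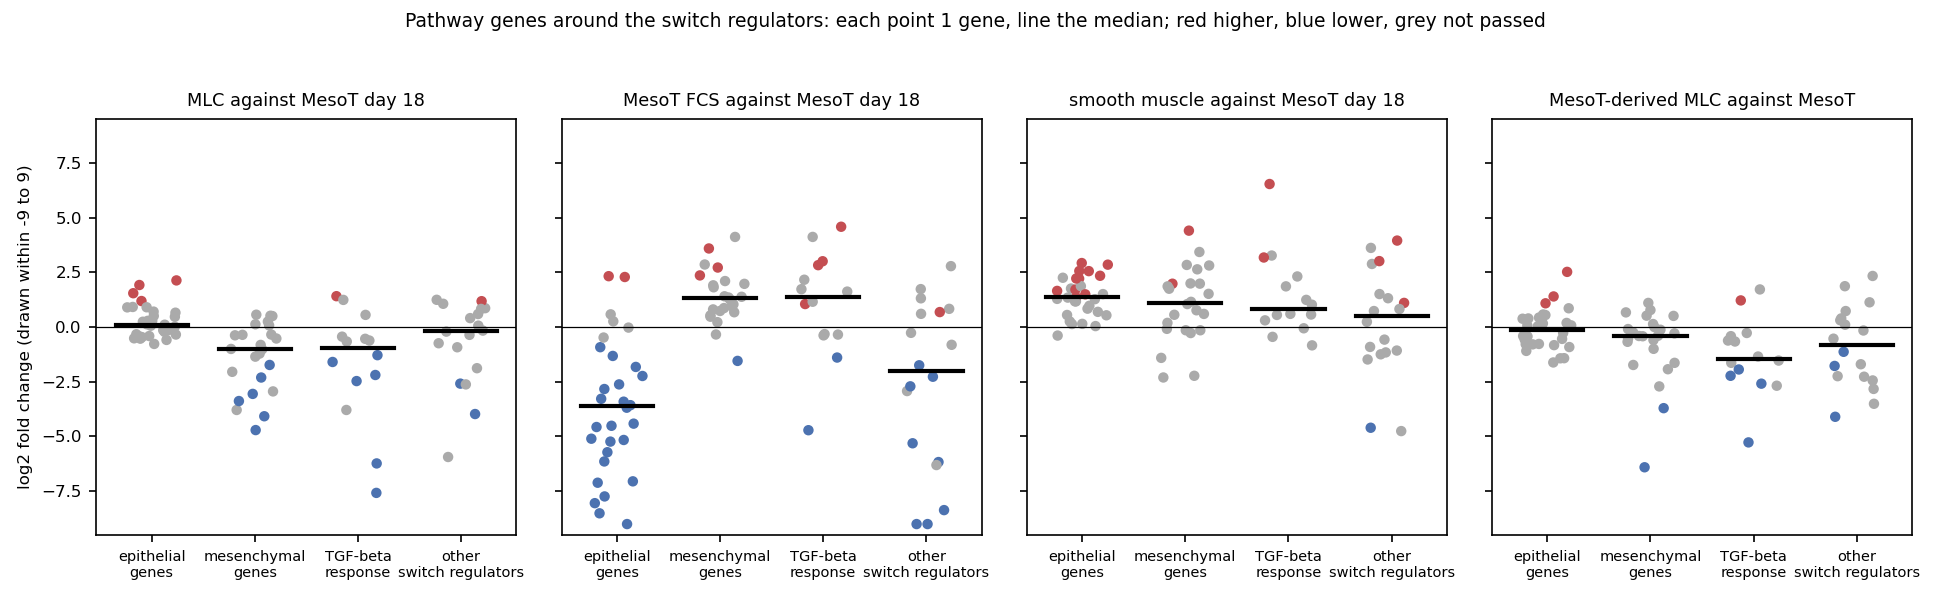
log2 fold changes of the genes in 4 lists (epithelial genes, mesenchymal genes, TGF-beta response, other switch regulators) in 4 comparisons, with a point per gene drawn within -9 to 9 and a line at the list median. The epithelial list has a median of -3.63 for MesoT FCS against MesoT day 18 and 0.11 for MLC against MesoT day 18.

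The smooth muscle library held the epithelial regulators at high levels. SNAI2, ESRP1 and ESRP2 were higher than in MesoT day 18, 3 of 10, where 8.67% of genes were called (5.08% higher and 3.58% lower), and GRHL2 at 0.62 ± 0.23 did not pass (edgeR adjusted p = 0.147). Of all calls against day 18 58.7% were higher, or 32.9% with scaling by library totals, under which none of the 3 regulators passed. Against MesoT FCS 5 of 10 were called, where 17.9% of genes were (10.3% higher and 7.57% lower), with GRHL2 at least 798-fold higher, ESRP1 2281-fold (95% counting interval 631 to 18840), ESRP2 higher by 7.14 ± 0.41, SNAI2 higher by 1.17 ± 0.16 and TWIST2 lower by 4.78 ± 1.03 (edgeR adjusted p between 0.00124 and 0.0299). Against MLC SNAI2 was higher by 1.12 ± 0.16 (edgeR adjusted p = 0.00542) and TWIST1 lower by 2.66 ± 0.67 (edgeR adjusted p = 0.0290), 2 of 10, where 34.4% of genes were called. CDH1 stood at 322 CPM in smooth muscle, and 11 of 30 epithelial genes rose over day 18 and none fell. Summed smooth muscle markers were 1178 CPM in that library, between the 1650 and 276 CPM of the day 18 libraries and above the 227 and 212 CPM of MLC, over which 6 of the 8 rose and none fell, with a median of 4.03. Of 10 stratified-epithelium markers 9 rose over day 18, with KRT5 at 870 CPM, KRT6A at 741 CPM, KRT14 at 259 CPM and TP63 at 82.2 CPM in that library. Their part in the levels of ESRP1, ESRP2 and SNAI2 was not tested. With 1 library, its spread was assumed to be that of the other groups, and all calls against day 18 and against MesoT FCS were lost when only the compared groups were fitted. With 1 library left out, ESRP2 lost its call over day 18 without day 18 replicate 1 (edgeR adjusted p = 0.0576), TWIST2 its call against MesoT FCS without MesoT FCS replicate 1 (0.0712) or 2 (0.0756), and against MLC SNAI2 lost its call without MLC replicate 1 (0.0617) or 2 (0.0572) and TWIST1 without MLC replicate 1 (0.0876) or 2 (0.107).

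MesoT-derived MLC set against the 4 MesoT libraries asks whether the mesenchymal form, moved to the MLC medium, takes on the levels of MLC. ZEB2 fell, 1 of 10, where 9.95% of 22316 genes were called (6.63% higher and 3.32% lower). GRHL2, ESRP1, SNAI1 and SNAI2 lay below every MesoT library without passing. The share of all genes that lay below in this way was not counted. CDH1 had 214 and 193 CPM in MesoT-derived MLC, against 175 and 217 CPM at day 22 and 173 and 164 CPM at day 18 (0.16 ± 0.17, edgeR adjusted p = 0.550). Without MesoT-derived MLC replicate 1, GRHL2 passed at -4.35 (edgeR adjusted p = 0.0259). Whether this route differs from MLC made directly was not tested, since the sets were normalised apart.

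Of 30 epithelial genes 3 rose in MesoT-derived MLC and none fell, with a median of -0.12 beside -0.05 over all genes. PKP2 was higher by 1.08 ± 0.17 (edgeR adjusted p = 0.0239) and CGN, a tight junction protein, by 2.52 ± 0.50 (edgeR adjusted p = 0.0364), and MUC1 also rose. TNC fell by 6.41 ± 0.98 (edgeR adjusted p = 0.0224) and FN1, the fibronectin gene, fell by 3.71 ± 0.81 (edgeR adjusted p = 0.0442), 2 of 24 mesenchymal genes. Of 14 TGF-beta genes 4 fell (NOX4, SKIL, SMAD7 and LEFTY2) and COL7A1 rose; NOX4 fell by 2.59 ± 0.23 (edgeR adjusted p = 0.0115). FOXC2 fell by 4.10 ± 0.47 (edgeR adjusted p = 0.0145) with FOXC1 and TCF4, 3 of 18 other regulators. With 1 library left out, epithelial genes that rose numbered 0 to 1, TGF-beta genes that fell 0 to 5, mesenchymal genes that fell 0 to 2 and other regulators that fell 0 to 4. The mesenchymal genes that fell numbered 0 without either MesoT-derived MLC library or either day 22 library. Of 11 mesothelial markers 6 rose, with sums of 2261 and 3518 CPM in MesoT-derived MLC, against 536 to 924 CPM in MesoT. Summed hepatocyte markers were 110 and 242.5 CPM in MesoT-derived MLC, against 2.63 to 4.97 CPM in MesoT. Summed gut markers were 21.1 and 116 CPM, against 2.07 to 3.81 CPM. Replicate 2, with more of both, held less of all 10 regulators than replicate 1, which sets 1 library against 1. The share of all genes lower in replicate 2 was not counted, and the part of these 3 marker lists was not tested.

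MesoT day 22 set against day 18 gave no call among the 10 regulators or the 22316 genes in edgeR's test, with 171 genes at an unadjusted p under 0.05 and 0 called by DESeq2. The log2 fold change of GRHL2 was 0.51 ± 0.75, that of ESRP2 0.44 ± 0.28 and that of ZEB2 -0.67 ± 0.46.

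The balance of the sides can be read within a library as GRHL2 counts per 100 ZEB1 counts, which needs no scaling. The genes differ in length, so the ratio has meaning only between libraries. It was 500.4 and 298 in MLC, 0 and 0 in MesoT FCS, 260.5 in smooth muscle, and 82.3 and 83.3 in MesoT day 18. The groups did not overlap, and 3 counts in the MesoT FCS libraries would have given 0.242 and 0.286. In the table it was 26.0 and 5.45 in MesoT-derived MLC, against 77.7 and 140.5 at day 22 and 81.9 and 89.1 at day 18. MesoT-derived MLC thus stood below MesoT, while MLC stood above it in the other set. ESRP1 counts per 100 ZEB1 counts were also lowest in MesoT-derived MLC in the table, at 37.7 and 10.0 in MesoT-derived MLC, against 55.6 and 123 at day 22 and 76.1 and 73.3 at day 18. ESRP2 counts overlapped, at 51.6 and 58.4 in MesoT-derived MLC, against 30.9 and 70.8 at day 22 and 38.7 and 43.2 at day 18.

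**Figure D4:**
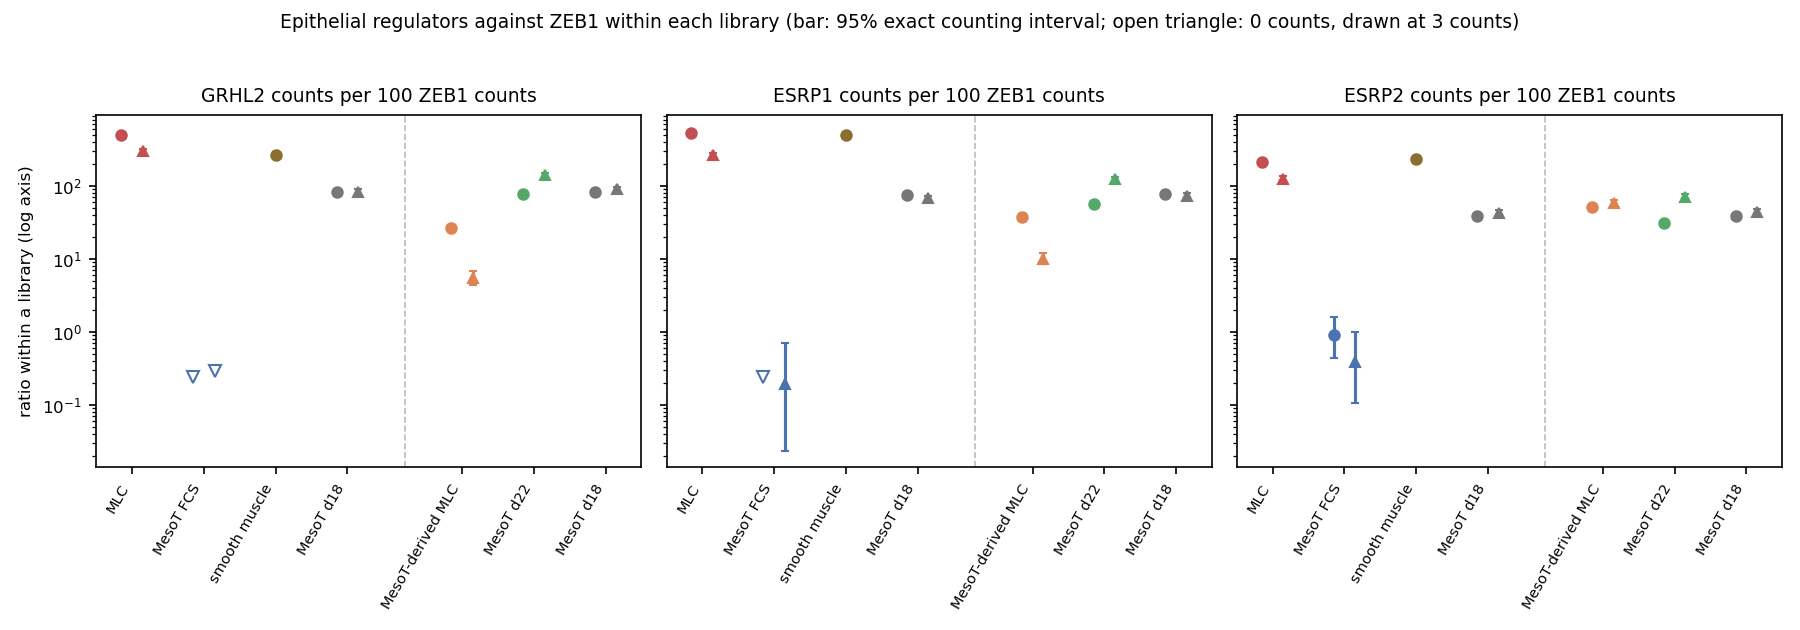
Counts of GRHL2, ESRP1 and ESRP2 per 100 ZEB1 counts in each library on a log axis, 1 panel per gene; an open triangle marks a library at 0 counts, drawn at 3 counts. GRHL2 per 100 ZEB1 counts is 298 and 500.4 in MLC and 5.45 and 26.0 in MesoT-derived MLC.

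The genes whose levels ran most like ZEB1 and GRHL2 over the 7 one-library files are given by Pearson's r of log2 CPM, as a description over 7 libraries that share groups and depth. For ZEB1 these were FAP (0.984), the pseudogenes PTMAP5 (0.954) and NPM1P27 (0.952), whose reads are uncertain, MIR100HG (0.942) and ARAP3 (0.941). Without the 2 MLC libraries, which lay farthest from the median of ZEB1, r was 0.951 for FAP and 0.852 for MIR100HG. For GRHL2 they were CGN (0.994), HOOK1 (0.994), CDH1 (0.993), FRAS1 (0.992) and SLC11A2 (0.992). Without the 2 MesoT FCS libraries r dropped to 0.436 for CGN, 0.680 for CDH1 and 0.433 for SLC11A2, so those values rest on MesoT FCS. Between regulators, GRHL2 and ESRP1 had an r of 0.990, or 0.802 without those 2 libraries, and ESRP1 and ESRP2 0.979, or 0.959. Pairs across the 2 sides were of both signs. On the negative side, GRHL2 and ZEB1 had -0.674, or -0.840 without those 2 libraries, and ESRP1 and TWIST2 -0.826, or -0.814. On the positive side, GRHL2 and SNAI1 had 0.344, or 0.822, and ESRP2 and SNAI2 0.413, or 0.891.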

How the data were processed

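Poly-A RNA sequencing of 11 human libraries was used. The authors deposited raw counts, in whole numbers, for each Ensembl gene ID. The submitters' processing notes name the build hg19 and, for no stated step, featureCounts with Subread 1.4.2, Bowtie2 2.2.9 and TopHat2 2.0.13.

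The 7 one-library files were fitted together, and the 6 table columns together, with edgeR 4.0.16 in R 4.3.3: TMM scaling, filterByExpr by group, the quasi-likelihood F test and Benjamini-Hochberg adjusted p under 0.05 over all genes. Residual degrees of freedom were 3 in each fit. Standard errors come from the F statistic. A group at 0 counts was given a floor of 3 counts, and ratios on 1 to 3 counts 95% exact binomial intervals, neither of which covers more than counting error. Both sets hold MesoT day 18: 12647 of 22110 genes (57.2%), and 9 of the 10 regulators, differed by under 0.5 log2 between the sets in both replicates, here called counted alike. Calculations were tested on simulated data.

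The regulators and gene lists were chosen with earlier results of these data known. Up to 4 genes per list were named by smallest p; OVOL1, OVOL2, CRB3, AP1M2, MIR200CHG, NFATC3 and ZEB1-AS1 were named after their values were seen. Alternatives were library-totals scaling, no filter, DESeq2 1.42.0, limma voom 3.58.1, the compared groups alone, a replicate block, other MesoT libraries and leaving out each library. Promoter and microRNA sequences are RefSeq's.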

Additional observations from a re-analysis of the deposited data

Results flagged for a closer look

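ESRP1 had 1 high library among the 4 MesoT libraries of the human table, day 22 replicate 2 at 65.3 CPM beside 42.3, 38.9 and 42.6 CPM. Its gap to the nearest library was 0.86 of the whole range, above Dixon's 95% limit for 4 samples. Chance alone puts about 1 in 20 groups past that limit.

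GRHL2, ESRP1, SNAI1 and SNAI2 lay above both MesoT day 18 libraries in both MLC libraries and below both of them in both MesoT-derived MLC libraries, each read within its own set. Of these 8 differences, the one of GRHL2 in MLC passed edgeR's test (adjusted p = 0.0437) and the other 7 did not, with the 4 of MesoT-derived MLC tested against all MesoT libraries (edgeR adjusted p between 0.0609 and 0.712 over the 7). The difference between the routes was not tested, because the sets were normalised apart. The share of all genes that lay on opposite sides of day 18 in this way was not counted. The log2 ratio of mean CPM for GRHL2 was 0.762 in MLC and -2.15 in MesoT-derived MLC. For ESRP1 it was 0.974 in MLC and -1.37 in MesoT-derived MLC, and for SNAI1 1.78 in MLC and -2.38 in MesoT-derived MLC. For SNAI2 it was 0.0781 in MLC and -1.76 in MesoT-derived MLC, and the fitted value of MLC turned to -0.07 with library totals.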

How the results depend on the processing

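The counts of called regulators below are of 10, or of 9 over genes counted alike, with the stated setting in place of the reported one. For MLC against MesoT day 18 (2 called) they were 1 with library totals, 4 with no filter, 4 with DESeq2, 4 with voom, 1 with the replicate block, 5 against the table's day 18, 1 over genes counted alike (chosen after seeing the data), and 0 to 4 with 1 library left out. For MesoT FCS against day 18 (3) they were 3 to 6, and for MLC against MesoT FCS (8) 4 to 6, with 1 library left out. Smooth muscle against day 18 (3) gave 0 with library totals, 5 with DESeq2 and 0 with the compared groups alone, and against MesoT FCS (5) 0 with those groups alone. Against MLC (2) it gave 5 with DESeq2, 4 with voom, 7 with those groups alone and 0 to 0 with 1 library left out. MesoT-derived MLC against MesoT (1) gave 2 with library totals, 0 with no filter, 5 with DESeq2, 2 with voom, 2 with the replicate block, 0 against day 18 alone, 0 against day 22 alone, and 0 to 2 with 1 library left out. SNAI1 in MesoT FCS against day 18, at -0.06, was -0.77 without day 18 replicate 1 and turned to 1.23 without day 18 replicate 2. The causes were not tested.

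Over all genes, calls differed by more than 1.5 times as follows, with 1 library left out given as a range. MLC against day 18 gave 5667, but 9238 against the table's day 18, 987 over genes counted alike and 1714 to 6601. MesoT FCS against day 18 gave 6301, but 3253 with the compared groups alone, 12759 against the table's day 18 and 2783 to 7845. MLC against MesoT FCS gave 11272, but 4966 to 8507. Smooth muscle against day 18 gave 1998, but 4572 with DESeq2, 0 with the compared groups alone, 7935 against the table's day 18 and 2339 to 4293. Smooth muscle against MesoT FCS gave 4123, but 0 with those groups alone and 1850 to 2149, and against MLC 7918, but 14131 and 2505 to 2554. MesoT-derived MLC gave 2220, but 4296 with DESeq2, 380 against day 18 alone, 612 against day 22 alone and 0 to 2996.

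The labels do not tie equal replicate numbers together, and not every correlation of deviations was above 0.1: they were 0.0666, 0.073 and 0.0107 in the one-library files, and in the human table they were 0.557 between day 22 and day 18, -0.00768 between MesoT-derived MLC and day 18 and -0.0636 between MesoT-derived MLC and day 22. The day 22 and day 18 libraries of equal number thus deviated together. With the replicate block, MesoT FCS against day 18 gave 4 called regulators, and SNAI2 passed in MesoT-derived MLC against MesoT (-1.89, edgeR adjusted p = 0.0257). No paired analysis was possible for smooth muscle because it held 1 library.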
